A study of Homo sapiens with 10 samples.

Results

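Sterol and fatty acid synthesis was followed through 34 genes, chosen by name: 7 of the mevalonate segment, 3 that make squalene and lanosterol, 8 that turn lanosterol into cholesterol, 5 of the sterol regulatory element-binding protein (SREBP) control system, 5 of sterol transport, efflux and oxysterol formation, and 6 that make, elongate and desaturate fatty acids. All 34 were listed in all 10 libraries, out of 20501 named genes in the tables of one experiment and 22609 genes in the tables of the other. The study sequenced RNA of KYSE30, KYSE180 and KYSE450, established human lines of esophageal squamous cell carcinoma, in 4 groups. In the first experiment each of the 3 lines gave 1 untreated control library, which the treatment protocol describes as buffer without cytokine, and 1 library after interferon-β (IFN-β), a type I interferon, at 1000 IU/ml for 72 h. The other experiment used KYSE30 and KYSE180 alone, with 1 library of vector control cells and 1 of IRF1-AS knockdown cells from each line. IRF1-AS is a long non-coding RNA from the strand opposite IRF1, the gene of an interferon-induced transcription factor, and its knockdown was delivered by lentivirus. For the knockdown, the sources used here give neither the number of hairpins, nor the time after infection, nor whether the cells were clonal. All cells grew in medium with serum, which itself carries cholesterol and fatty acids.

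Cholesterol and fatty acids are built from acetyl-CoA by enzymes whose genes are controlled together. When membrane sterol is low, the escort protein SCAP carries the membrane-bound SREBP factors, products of SREBF1 and SREBF2, to the Golgi, where they are cut and released to the nucleus to switch these genes on. When sterol is high, the INSIG proteins hold SCAP and SREBP in the endoplasmic reticulum, while oxysterols act on liver X receptors to raise the efflux pumps ABCA1 and ABCG1. INSIG1 is itself an SREBP target, so its transcript follows SREBP activity. Type I interferon is known in macrophages for inducing CH25H, which makes the oxysterol 25-hydroxycholesterol.

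Levels are in FPKM, read fragments scaled to transcript length and to the size of the library, as deposited. They are per length, so levels of genes can be set beside each other within a library. Between libraries a shift of all genes can enter: in KYSE450 the median tested gene lay 0.43 higher after IFN-β on the log2 scale before scaling. Deposited levels of that line can therefore rise where the scaled ratio does not. The experiments were normalized apart and are not compared in level. Fitted differences are on the log2(FPKM + 1) scale after each library was scaled to the others by the median of its gene ratios. They are given ± standard error from limma, from a model with a term for the cell line, and p-values are adjusted over all genes tested. Counts of genes higher or lower in a line, and of those past 1.5-fold, are on that same scaled scale, on which the pseudocount of 1 shrinks the ratio of low genes. Since 1 library was made per line and condition, the lines are the replicates of a treatment, and its p-values measure how far the lines differed in it. For differences between lines, the control and treated libraries of a line stand in as its replicates, with the treatment as a term. Neither kind of p-value measures repeat cultures of a line. The tests took in genes that reached 1 FPKM in at least 3 of the 6 IFN-β experiment libraries, or in at least 2 of the 4 of the knockdown experiment. In each experiment 31 members reached 1 FPKM in every library. CH25H was listed at 0 in all 6 libraries of the IFN-β experiment and at no more than 0.0157 FPKM in the knockdown experiment, and was tested in neither. ABCA1 was not tested in the knockdown experiment.

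Of 10 squamous markers, 10 were at 1 FPKM or more in all libraries (summed level 493 to 8490 FPKM in the IFN-β experiment and 1260 to 10000 FPKM in the knockdown experiment). KYSE30 stood apart in the IFN-β experiment, with keratins KRT5 at 2.91 and 1.37 FPKM, KRT14 at 2.61 and 2.83 FPKM, KRT6A at 4.34 and 6.33 FPKM and KRT17 at 3.07 and 3.15 FPKM, untreated first. KYSE180 had 2350 and 1200 FPKM of KRT5 there, and KYSE450 3350 and 2380 FPKM. In the knockdown experiment KYSE30 had 117 and 228 FPKM of KRT5 and 214 and 59.4 FPKM of KRT17, vector first. The part of this in the differences between lines was not tested. Of 5 leukocyte and 6 adipocyte and hepatocyte markers, all stayed under 1 FPKM in every library, with summed levels of at most 0.88 and 0.43 FPKM. The summed level of 5 fibroblast and endothelial markers was 0.31 to 2.26 FPKM in the IFN-β experiment and 1.73 to 6.21 FPKM in the knockdown experiment. The locus of IRF1-AS, listed as C5orf56, went from 6.86 FPKM with vector to 3.04 FPKM with knockdown in KYSE30 (44.4% of control) and from 1.08 to 0.948 FPKM in KYSE180 (88% of control). It was thus lower in both libraries labelled as knockdown, by a small margin in KYSE180, and every direction below rests on those labels. The fitted difference of C5orf56 over both lines was -0.55 ± 0.32 (limma, unadjusted p = 0.142, adjusted p = 0.822). IFN-β raised C5orf56 by 1.60 ± 0.13 on the log2 scale (limma, adjusted p = 0.00237) and the interferon-stimulated gene IFI27 by 8.28 ± 0.14 (adjusted p = 8.87e-07), each in 3 of 3 lines.

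The stretches before the transcription start of 5 of these genes are shown because those genes were among the ones lower after the knockdown in both lines, and because they carry the sequence element most members share. They come from RefSeq (GRCh38.p14), run 5′ to 3′ on the gene's own strand, lie within the 250 bases before the RefSeq start and leave out bases inside any annotated exon. Capitals mark CCAAT, the letters read by the factor NF-Y that works beside SREBP, as CCAAT or, on the other strand, ATTGG, and in INSIG1 also CACNCCAC, the core of a sterol regulatory element, which reads GTGGCGTG here on the other strand.
INSIG1, chr7:155297628-155297775, plus strand: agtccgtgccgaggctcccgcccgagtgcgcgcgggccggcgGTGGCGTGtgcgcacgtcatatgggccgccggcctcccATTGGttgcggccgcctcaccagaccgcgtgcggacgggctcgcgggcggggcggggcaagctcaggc
HMGCS1, chr5:43313513-43313662, minus strand: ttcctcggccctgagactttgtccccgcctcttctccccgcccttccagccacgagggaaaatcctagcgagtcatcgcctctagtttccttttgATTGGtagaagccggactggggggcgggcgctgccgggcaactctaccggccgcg
MSMO1, chr4:165327419-165327622, plus strand: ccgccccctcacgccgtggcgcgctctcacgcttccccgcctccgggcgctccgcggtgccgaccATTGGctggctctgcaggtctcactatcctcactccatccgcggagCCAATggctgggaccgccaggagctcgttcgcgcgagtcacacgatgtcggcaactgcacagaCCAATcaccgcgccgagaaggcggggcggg
STARD4, chr5:111512591-111512785, minus strand: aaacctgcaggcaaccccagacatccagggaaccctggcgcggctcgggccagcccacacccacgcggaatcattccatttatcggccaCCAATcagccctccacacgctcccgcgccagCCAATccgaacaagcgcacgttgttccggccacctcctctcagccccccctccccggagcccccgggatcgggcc
LSS, chr21:46228825-46229024, minus strand: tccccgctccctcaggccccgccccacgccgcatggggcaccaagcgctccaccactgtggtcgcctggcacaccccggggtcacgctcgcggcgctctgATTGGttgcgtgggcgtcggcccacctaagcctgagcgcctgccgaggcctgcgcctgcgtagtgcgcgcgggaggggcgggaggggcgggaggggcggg

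Of the 34 members, 29 matched a promoter in the RefSeq table. CCAAT stood in 18 of the 29, or 62.1%, and in 37% of the 27305 genes of the table, searched on both strands of the 250 bases before the start. A gene with several listed starts was counted once if any of them had the letters. CACNCCAC, chosen after the longer form had been searched, was found in 7 members (24.1%, against 5.89% of all genes), and 6 of these 7 also held CCAAT. The longer TCACNCCAC, which contains those letters, stood in 1 member, SREBF2 (3.45%, against 1.09%). The E-box CACGTG stood in 4 members (13.8%, against 7.73%). The core of an interferon-stimulated response element, read as GAAA, any 2 bases and GAAA, stood in 0 of 29, against 3.71% of all genes. These are matches of letters in a window and say nothing of binding in these cells.

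In the libraries labelled as IRF1-AS knockdown, most sterol genes were lower in both lines, but no gene passed the test. C5orf56 itself stood at 44.4% of control in KYSE30 and 88% in KYSE180. After the knockdown 28 of 32 tested members had a lower fitted level and 4 a higher one, with a median log2 difference of -0.48, beside -0.02 over all 12813 genes tested. The line medians of the members were -0.49 in KYSE30 and -0.57 in KYSE180. With 2 pairs and 1 residual degree of freedom a gene, 0 members and 0 genes were called (0% of genes tested), and the smallest adjusted p of any gene was 0.227. At an unadjusted p under 0.05, 13 members were lower and 0 higher, where 4.65% of all genes were lower and 1.77% higher. Members were lower in both lines in 24 of 32 cases, against 28.5% of all genes. In 17 of 32 both knockdown libraries lay under both vector libraries on the scaled values, against 9.20% of all genes, and in 0 both lay above (8.30% of all genes). The 32 members stand in one pathway and are not independent, so these counts describe the list. In bulk RNA of a culture, fewer cells with a transcript and less of it per cell cannot be told apart.

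**Figure D1:**
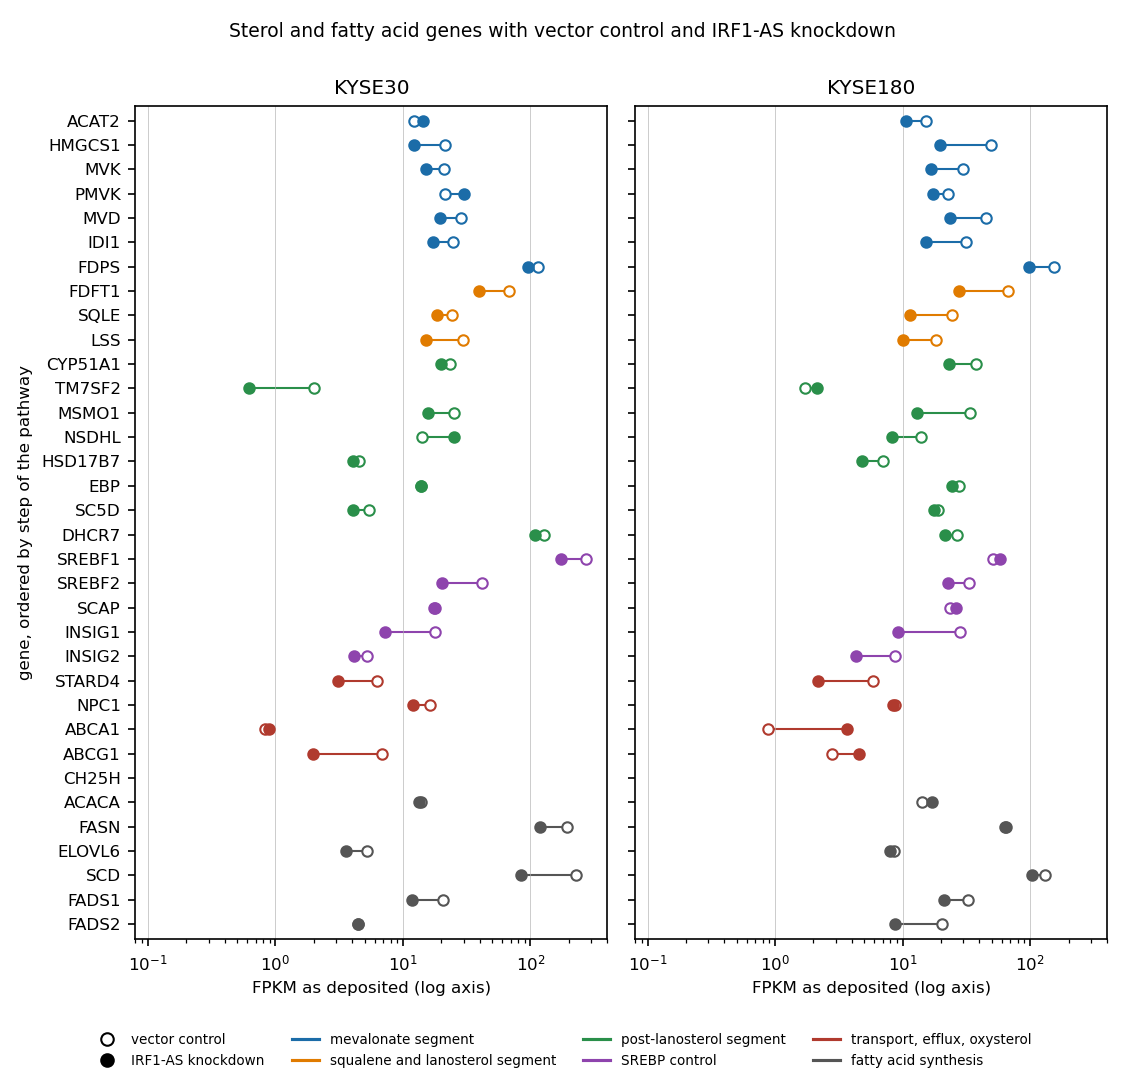
FPKM as deposited (log axis) of each gene in KYSE30 and KYSE180, open circles for the vector control library and filled circles for the IRF1-AS knockdown library, 1 library each, coloured by step of the pathway. CH25H, at or near 0, is not drawn; the filled circle lies to the left for most enzymes of the sterol pathway, and INSIG1 goes from 17.8 to 7.24 FPKM in KYSE30 and from 28.4 to 9.22 FPKM in KYSE180.

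The member with the smallest p was INSIG1, the sterol-sensing anchor of the endoplasmic reticulum (chr7:155297776-155310235, plus strand, GRCh38). Its level was 17.8 FPKM with vector and 7.24 FPKM with knockdown in KYSE30, and 28.4 and 9.22 FPKM in KYSE180. The knockdown libraries held 40.7% and 32.5% of their controls, and the groups did not overlap. The fitted difference was -1.39 ± 0.20 (95% interval -1.90 to -0.87, unadjusted p = 0.00101, limma adjusted p = 0.674), the 15th smallest p of all genes. FDFT1, which joins 2 farnesyl units into squalene, had 67.5 and 39.2 FPKM in KYSE30 and 67.1 and 27.5 FPKM in KYSE180, vector first. The vector libraries of the lines were nearly equal, and both knockdown libraries were well below them. Its fitted difference was -1.05 ± 0.20 (95% interval -1.56 to -0.53, unadjusted p = 0.00362, limma adjusted p = 0.746).

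HMGCS1, the cytosolic synthase that commits acetyl-CoA units to the mevalonate pathway (chr5:43289395-43313512, minus strand), had 21.2 FPKM with vector and 12.3 FPKM with knockdown in KYSE30, and 49.3 and 19.5 FPKM in KYSE180. The groups did not overlap, although the KYSE180 knockdown library nearly reached the KYSE30 control. Its fitted difference was -1.05 ± 0.21 (95% interval -1.60 to -0.50, unadjusted p = 0.0045, limma adjusted p = 0.746). LSS, which folds squalene epoxide into lanosterol, the first sterol (chr21:46188141-46228824, minus strand), had 29.7 and 15.3 FPKM in KYSE30 and 18.1 and 10 FPKM in KYSE180. Its difference was -0.89 ± 0.19 (95% interval -1.38 to -0.40, unadjusted p = 0.00576, limma adjusted p = 0.746). MSMO1, which takes part in removing methyl groups from the sterol (chr4:165327623-165343160, plus strand), had 25.1 and 15.6 FPKM in KYSE30 and 33.9 and 13 FPKM in KYSE180. The difference was -1.02 ± 0.23 (95% interval -1.61 to -0.43, unadjusted p = 0.00676, limma adjusted p = 0.746). In all 3 of these enzymes both knockdown libraries were below both vector libraries.

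These 5 genes, together with STARD4 and FADS1, make up the 7 members lower by 1.5-fold or more in both lines, a size that 2.08% of all tested genes reached. STARD4, a carrier that moves cholesterol between membranes (chr5:111496033-111512590, minus strand), had 6.22 and 3.12 FPKM in KYSE30 and 5.81 and 2.17 FPKM in KYSE180, which is 50.1% and 37.4% of control. FADS1, the delta-5 desaturase of polyunsaturated fatty acids, had 20.8 and 11.7 FPKM in KYSE30 and 32.7 and 21.1 FPKM in KYSE180. Its KYSE180 knockdown library was just above the KYSE30 control as deposited and just below it after scaling. Within a line, 13 members were lower by 1.5-fold or more in KYSE30 (11.9% of all genes) and 16 in KYSE180 (7.87% of all genes). Higher by that size on the log2(FPKM + 1) scale were 1 in KYSE30 (5.94% of all genes) and 0 in KYSE180 (5.60%), where ABCG1, at 163% of control in FPKM, came to 0.55 and fell short. The knockdown libraries held a median of 71.8% of the vector control over the 32 members in KYSE30, with a range of 28.5% to 178%, and 66.3% in KYSE180, with a range of 32.5% to 163%.

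By step of the pathway, which no test compared, the segments are described in turn. In the mevalonate segment 5 of 7 enzymes were lower in both lines and the median difference was -0.64. MVK, the kinase of mevalonate, had 20.9 and 15.2 FPKM in KYSE30 and 29.9 and 16.8 FPKM in KYSE180. MVD, the decarboxylase that yields isopentenyl diphosphate, had 28.3 and 19.5 FPKM in KYSE30 and 44.7 and 23.4 FPKM in KYSE180. IDI1, which isomerises that product, had 24.5 and 17.3 FPKM in KYSE30 and 31.3 and 15.2 FPKM in KYSE180. The knockdown libraries of MVK, MVD and IDI1 all lay under both of their controls. FDPS, the farnesyl diphosphate synthase, was the most abundant enzyme of the segment, with 115 and 95.6 FPKM in KYSE30 and 155 and 98 FPKM in KYSE180. ACAT2, which condenses acetyl-CoA, and PMVK, the phosphomevalonate kinase, went opposite ways in the lines. ACAT2 was at 12.3 and 14.3 FPKM in KYSE30 and 15.3 and 10.6 FPKM in KYSE180, and PMVK at 21.5 and 30.2 FPKM in KYSE30 and 22.7 and 17.4 FPKM in KYSE180.

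All 3 squalene and lanosterol enzymes were lower in both lines, with a median difference of -0.89. SQLE, the epoxidase that oxidises squalene, had 24.1 and 18.5 FPKM in KYSE30 and 24.2 and 11.4 FPKM in KYSE180. Of the 8 enzymes after lanosterol, 6 were lower in both lines on the scaled values, EBP in KYSE30 by no more than -0.06, but the median difference was -0.32 and 1 of them, MSMO1, was lower at an unadjusted p under 0.05. CYP51A1, the demethylase that acts on lanosterol first, had 23.4 and 20 FPKM in KYSE30 and 37.6 and 23.3 FPKM in KYSE180. HSD17B7, a ketoreductase of the sterol nucleus, had 4.53 and 4.05 FPKM in KYSE30 and 7.07 and 4.84 FPKM in KYSE180. For the isomerase EBP, the desaturase SC5D and the reductase DHCR7, which act last, the knockdown libraries held 74% to 100% of vector. In KYSE30 that range also held SQLE, FDPS and CYP51A1, at 76.8%, 83.4% and 85.5%. In KYSE180 those were below it, at 47.3%, 63.3% and 61.9%. EBP had 13.8 and 13.9 FPKM in KYSE30 and 27.9 and 24.2 FPKM in KYSE180. SC5D had 5.46 and 4.04 FPKM in KYSE30 and 18.9 and 17.5 FPKM in KYSE180, and DHCR7 had 128 and 108 FPKM in KYSE30 and 26.8 and 21.4 FPKM in KYSE180. In all 3 genes the gap between lines exceeded that between vector and knockdown.

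A pair of post-lanosterol genes split by line. NSDHL, a decarboxylating dehydrogenase that works with MSMO1, was at 14 FPKM in both vector libraries, at 25 FPKM with knockdown in KYSE30 and at 8.27 FPKM with knockdown in KYSE180. TM7SF2, a sterol reductase, had 2.02 and 0.617 FPKM in KYSE30 and 1.73 and 2.14 FPKM in KYSE180, and it reached 1 FPKM in 3 of the 4 libraries. The difference between lines was not tested for either gene.

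Among the control genes, SREBF2, whose product chiefly drives the cholesterol genes, had 41.5 and 20.1 FPKM in KYSE30 and 33.1 and 22.5 FPKM in KYSE180. Both knockdown libraries lay under both controls, and the fitted 95% interval was -1.37 to -0.24 before adjustment over genes. INSIG2, the close relative of INSIG1 that also holds SCAP back, had 5.21 and 4.16 FPKM in KYSE30 and 8.7 and 4.28 FPKM in KYSE180. SREBF1, whose product chiefly drives fatty acid genes, differed by line, with 274 and 175 FPKM in KYSE30 and 51.5 and 57.9 FPKM in KYSE180. SCAP was nearly level, at 17.6 and 18 FPKM in KYSE30 and 23.7 and 26.3 FPKM in KYSE180.

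**Figure D2:**
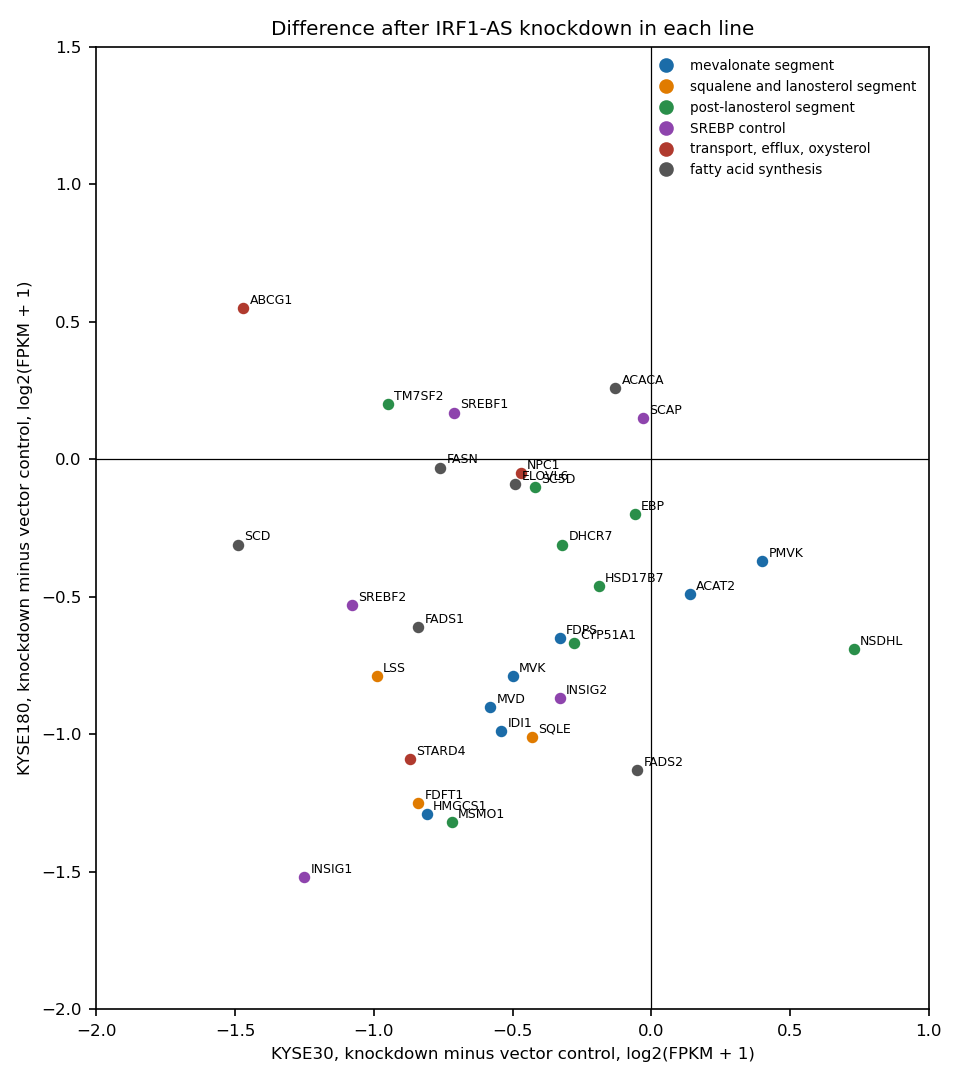
Difference of each tested gene between knockdown and vector control in log2(FPKM + 1) after scaling, KYSE30 on the x axis and KYSE180 on the y axis, 1 pair of libraries a line, coloured by step of the pathway. The lower left holds the 24 genes lower in both lines, with INSIG1 at -1.25 and -1.52, and NSDHL lies apart at 0.73 and -0.69.

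Among transport and efflux genes, STARD4, given above, and NPC1 were lower in both lines on the scaled values, NPC1 in KYSE180 by -0.05. The efflux pumps did not share that direction. NPC1, which exports cholesterol from lysosomes, had 16.2 and 12 FPKM in KYSE30 and 8.78 and 8.43 FPKM in KYSE180. ABCG1, a liver X receptor target that exports cholesterol, had 6.89 and 1.97 FPKM in KYSE30 and 2.78 and 4.53 FPKM in KYSE180, so the groups overlapped and the lines went opposite ways. ABCA1, the other such pump, had 0.831 and 0.896 FPKM in KYSE30 and 0.877 and 3.64 FPKM in KYSE180. Only its KYSE180 knockdown library exceeded 1 FPKM. Neither pump therefore followed the sterol enzymes in KYSE180, where 16 members were lower by 1.5-fold or more.

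In the fatty acid branch 5 of 6 genes were lower in both lines on the scaled values, SCD, FASN, ELOVL6 and FADS1 by more in KYSE30, and FADS2 there by no more than -0.05. SCD, the stearoyl-CoA desaturase and one of the most abundant members, had 227 and 84.1 FPKM in KYSE30 and 130 and 104 FPKM in KYSE180. FASN, the fatty acid synthase, had 193 and 119 FPKM in KYSE30 and 64.2 and 62.9 FPKM in KYSE180. ELOVL6, which elongates palmitate, had 5.2 and 3.61 FPKM in KYSE30 and 8.52 and 7.94 FPKM in KYSE180. FADS2, the delta-6 desaturase, showed the opposite split, at 4.41 and 4.42 FPKM in KYSE30 and 20.4 and 8.75 FPKM in KYSE180. ACACA, the acetyl-CoA carboxylase, had 13.9 and 13.3 FPKM in KYSE30 and 14.2 and 17.1 FPKM in KYSE180. The median log2 ratio of the branch was -0.62 in KYSE30 and -0.20 in KYSE180, while that of the mevalonate segment was -0.50 and -0.79. The difference in pattern between lines was not tested. Across the 32 members the log2 ratios of the lines correlated at r = 0.05, which is a description over genes of 1 pathway that share libraries, and over all tested genes at 0.09.

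Neighbouring genes outside the list were counted in the same way. Of 27 tested genes for sterol sensing, trafficking and the NF-Y subunits, 0 were called, 0 had an unadjusted p under 0.05, 8 were lower in both lines and the median difference was -0.06. Of 21 tested genes for other fatty acid and acyl-CoA steps, 0 were called and 4 (ACSS2, SCD5, ACSL1 and ACSL3) were lower at an unadjusted p under 0.05, where 4.65% of all genes were. In that list 15 of 21 had a lower fitted level, 11 were lower in both lines (28.5% of all genes) and the median was -0.18. ACSS2, which makes acetyl-CoA from acetate, had 18.9 and 14.3 FPKM in KYSE30 and 23.9 and 15.3 FPKM in KYSE180. ACSL1, which activates long-chain fatty acids, had 17.6 and 13.5 FPKM in KYSE30 and 32.5 and 10.2 FPKM in KYSE180. Other transcripts moved with these genes: IRF1 had 31.1 and 5.88 FPKM in KYSE30 and 1.83 and 1.2 FPKM in KYSE180, and 6 of 6 interferon response genes were lower in both lines. Of the squamous markers, the basal keratin KRT14 had 29.7 and 13.6 FPKM in KYSE30 and 3620 and 1680 FPKM in KYSE180. The basal factor TP63 had 33.6 and 21.3 FPKM in KYSE30 and 39.6 and 28.7 FPKM in KYSE180. PERP was also lower in both lines on the scaled values, by -0.12 and -0.24. The other markers, KRT5, KRT6A, KRT17, SOX2, EPCAM, CDH1 and SFN, were not lower in both lines. The part of these transcripts in the levels of the sterol genes was not tested.

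IFN-β left the sterol and fatty acid genes without a called difference. Of 33 members tested, 0 were called, where 0.594% of the 11622 genes tested were (67 higher, or 0.576%, and 2 lower, or 0.0172%). On the values as deposited, without scaling, 178 genes were called higher and 42 lower, and still 0 members. That fit gave adjusted p-values far smaller than 6 libraries can bear, so its counts carry little weight. The median log2 difference of the members was -0.05, beside -0.01 over all genes, and the line medians were -0.14 in KYSE30, 0.08 in KYSE180 and -0.01 in KYSE450. At an unadjusted p under 0.05, 1 member was higher (5.27% of all genes) and 1 lower (5.75% of all genes). Members were higher in every line in 2 cases (18.2% of all genes) and lower in every line in 6 (18.6% of all genes), and 0 were lower by 1.5-fold or more in every line (0.112% of all genes). By line, on the log2(FPKM + 1) scale, 1 member was higher by 1.5-fold or more and 1 lower in KYSE30 (2.20% and 0.465% of all genes), 0 and 1 in KYSE180 (5.52% and 8.83%), and 1 and 2 in KYSE450 (5.83% and 4.72%). ABCG1 in KYSE30, at 191% of control in FPKM but at low levels, came to 0.46 on that scale and was not counted. In the same libraries 5 of 6 interferon response genes were called higher, with a median difference of 6.31 over the 6.

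**Figure D3:**
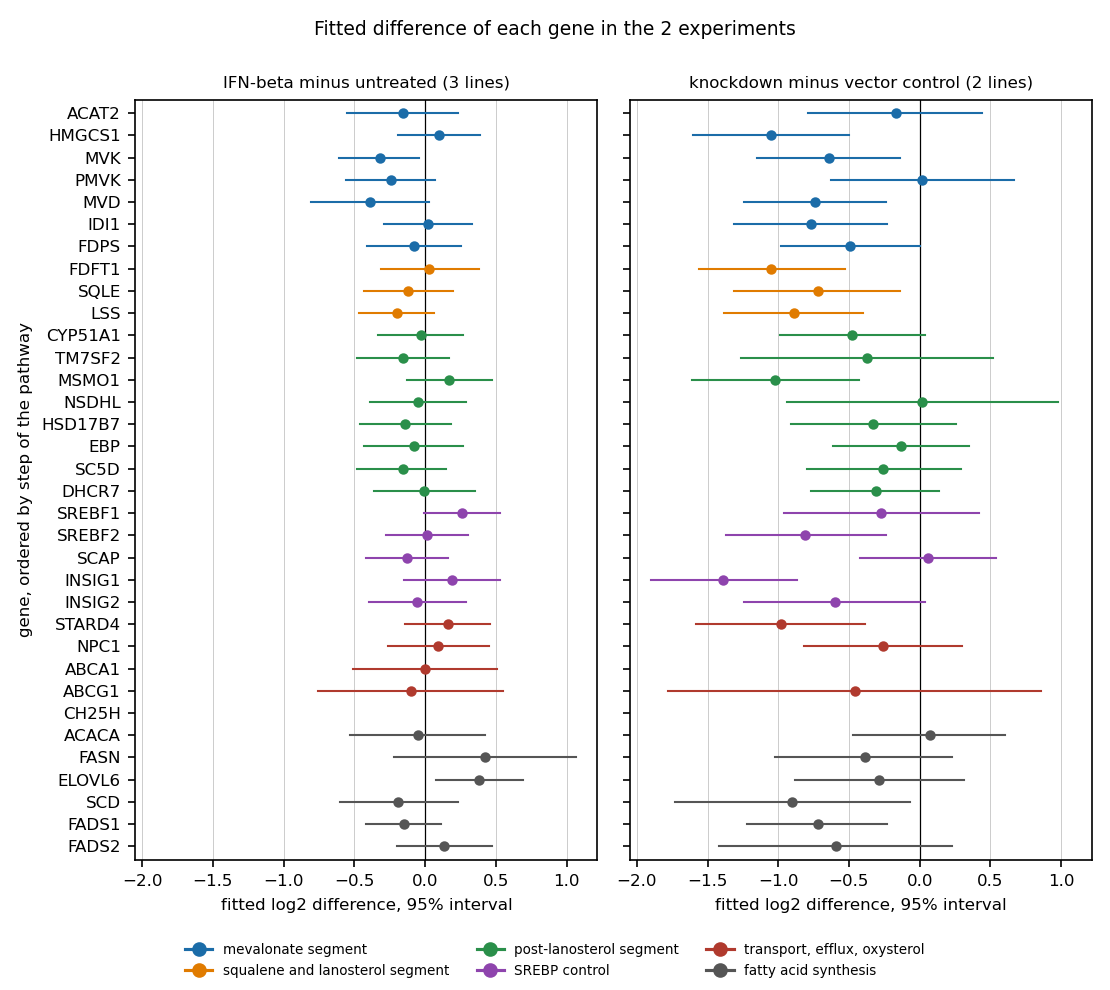
Fitted log2 difference of each tested gene with its 95% interval, IFN-β minus untreated over 3 lines on the left and knockdown minus vector control over 2 lines on the right, coloured by step of the pathway. On the left the genes lie close to 0 (median -0.05), and on the right most lie below it (median -0.48), with wider intervals; the experiments share no library and were normalized apart.

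ELOVL6 had the smallest p, with 3.64 FPKM untreated and 5.09 FPKM after IFN-β in KYSE30, 5.73 and 7.06 FPKM in KYSE180 and 3.17 and 6.57 FPKM in KYSE450. As deposited its groups overlapped, and on the scaled values all 3 treated libraries lay above all 3 untreated ones, which held for 1 of 33 members and 1.93% of all genes. Its difference was 0.38 ± 0.13 (95% interval 0.08 to 0.69, unadjusted p = 0.0207, limma adjusted p = 0.394). MVK had 17.5 and 13.6 FPKM in KYSE30, 24.5 and 20.2 FPKM in KYSE180, and 7.8 and 7.97 FPKM in KYSE450. After scaling it was lower in 3 of 3 lines, by -0.32 ± 0.12 (95% interval -0.61 to -0.04, unadjusted p = 0.0318, limma adjusted p = 0.417). SREBF1 had 78.6 and 86.9 FPKM in KYSE30, 25.2 and 29.3 FPKM in KYSE180 and 22.4 and 41.4 FPKM in KYSE450, and differed by 0.26 ± 0.12 (limma adjusted p = 0.467).

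MVD and LSS followed in rank. MVD had 13.8 and 8.53 FPKM in KYSE30, 34.5 and 36.6 FPKM in KYSE180, and 15.6 and 13.6 FPKM in KYSE450, with a difference of -0.39 ± 0.18 (limma adjusted p = 0.474). LSS had 36.7 and 31.2 FPKM in KYSE30, 21.2 and 17.7 FPKM in KYSE180, and 22 and 27.2 FPKM in KYSE450, with a difference of -0.20 ± 0.11 (limma adjusted p = 0.534). Treated and untreated libraries overlapped in both genes. On the scaled values LSS was lower in every line, by -0.22 in KYSE30, -0.20 in KYSE180 and -0.19 in KYSE450.

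The intervals show what size of response the libraries leave room for. INSIG1 had 25.2 and 23.2 FPKM in KYSE30, 50.8 and 69.8 FPKM in KYSE180, and 9.61 and 15.7 FPKM in KYSE450, with an interval of -0.15 to 0.53. HMGCS1 had 22.9 and 21.2 FPKM in KYSE30, 103 and 120 FPKM in KYSE180, and 22 and 34.2 FPKM in KYSE450, with an interval of -0.19 to 0.39. Neither interval reached the size of the knockdown differences of the same genes, -1.39 and -1.05. That did not hold for every member. The IFN-β interval of MVD, -0.81 to 0.03, took in its knockdown difference of -0.74. The interval of ABCG1, -0.76 to 0.55, took in its difference of -0.46. SREBF2 had 25.5 and 22.3 FPKM in KYSE30, 36.1 and 37 FPKM in KYSE180, and 16.5 and 25.8 FPKM in KYSE450, with an interval of -0.28 to 0.30.

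**Figure D4:**
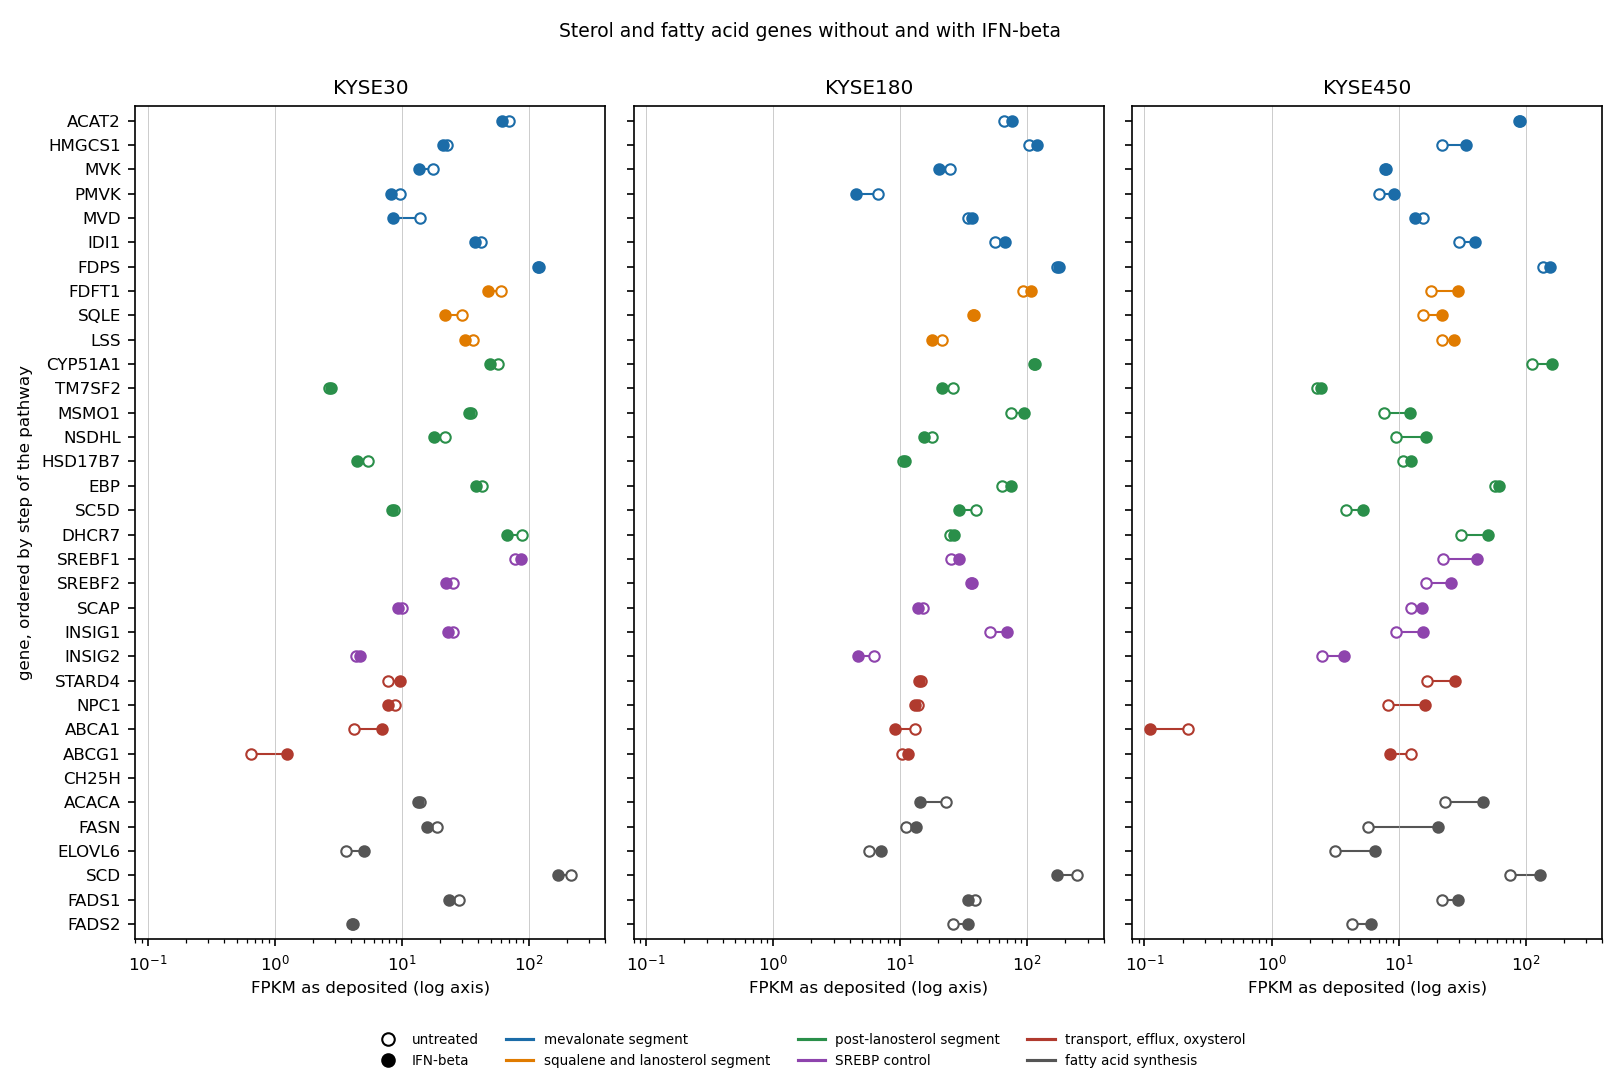
FPKM as deposited (log axis) of each gene in KYSE30, KYSE180 and KYSE450, open circles for the untreated library and filled circles for the IFN-β library, 1 library each, coloured by step of the pathway. In KYSE450 most filled circles lie to the right as deposited, where the median tested gene of that line also lay 0.43 higher on the log2 scale before scaling; CH25H, listed at 0, is not drawn.

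KYSE450 differed from the other lines in its deposited levels after IFN-β: FASN went from 5.72 to 20.6 FPKM and ACACA from 23.4 to 46.6 FPKM. In that line the median tested gene lay 0.43 higher in the treated library before scaling, and after scaling the ratios were 1.23 for FASN and 0.48 for ACACA on the log2 scale. FASN was at 19 and 15.8 FPKM in KYSE30 and 11.2 and 13.4 FPKM in KYSE180, and ACACA at 14 and 13.5 FPKM and 22.9 and 14.4 FPKM, so neither gene kept its direction across lines. SCD had 217 and 170 FPKM in KYSE30, 248 and 171 FPKM in KYSE180 and 75.6 and 130 FPKM in KYSE450. Among efflux genes, ABCA1 had 4.17 and 7 FPKM in KYSE30, 13.1 and 9.19 FPKM in KYSE180 and 0.22 and 0.11 FPKM in KYSE450. ABCG1 had 0.65 and 1.24 FPKM in KYSE30, 10.3 and 11.6 FPKM in KYSE180 and 12.6 and 8.57 FPKM in KYSE450. CH25H, the interferon-inducible oxysterol enzyme of macrophages, was listed at 0 with and without the cytokine in all 3 lines. Of the neighbouring lists, 0 of 28 sterol genes and 0 of 19 fatty acid genes were called.

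At a limma adjusted p under 0.05, members were called between the lines and 0 with either treatment, where the knockdown fit called 0 of 12813 genes. By overlap the knockdown experiment did not show that order. Both knockdown libraries lay under both vector libraries in 17 of 32 members (9.20% of all genes). Both KYSE30 libraries lay above both KYSE180 libraries in 6 members (32.5% of all genes) and below them in 5 (35.6%). In the IFN-β experiment 17 of 33 members differed between KYSE180 and KYSE30 (13 higher and 4 lower in KYSE180, limma adjusted p under 0.05), where 50.0% of all tested genes did (25.4% higher and 24.5% lower). Over all genes that was 2955 higher and 2853 lower, and without scaling 2966 higher and 1655 lower, with 17 members called either way. The unscaled fit again gave adjusted p-values too small for 6 libraries, so its counts carry little weight. KYSE450 differed from KYSE30 in 17 members (5 higher and 12 lower, against 50.3% of all genes, 24.3% higher and 26.0% lower) and from KYSE180 in 20 (5 higher and 15 lower, against 53.3% of all genes, 25.3% higher and 27.9% lower). These 3 contrasts share libraries. The members' totals over both directions are near the background, and the difference of either direction's share from its background was not tested. Both KYSE180 libraries lay above the other 4 in 14 of 33 members (23.4% of all genes), and both KYSE450 libraries lay below the other 4 in 13 of 33 (23.4% of all genes). The corresponding counts were 5 above and 10 below for KYSE30 (21.8% and 21.9% of all genes), 3 below for KYSE180 (21.2%) and 5 above for KYSE450 (21.6%).

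The members in which KYSE180 exceeded KYSE30 most were the enzymes TM7SF2, HMGCS1 and SC5D, the efflux pump ABCG1 (by 2.49 ± 0.33, limma adjusted p = 0.00136) and the desaturase FADS2. HMGCS1 stood at 103 and 120 FPKM in KYSE180, untreated first, against 22.9 and 21.2 FPKM in KYSE30, a difference of 2.09 ± 0.15 (limma adjusted p = 6.59e-05). TM7SF2 stood at 26.1 and 21.5 FPKM in KYSE180, 2.67 and 2.79 FPKM in KYSE30 and 2.3 and 2.44 FPKM in KYSE450. Its difference from KYSE30 was 2.56 ± 0.17 (limma adjusted p = 4.4e-05). SC5D stood at 39.9 and 29.2 FPKM in KYSE180, 8.7 and 8.31 FPKM in KYSE30 and 3.88 and 5.28 FPKM in KYSE450, and exceeded KYSE30 by 1.70 ± 0.16 (limma adjusted p = 0.000238). FADS2 stood at 26 and 34.1 FPKM in KYSE180, 4.14 and 4.07 FPKM in KYSE30 and 4.29 and 6.03 FPKM in KYSE450, and exceeded KYSE30 by 2.41 ± 0.18 (limma adjusted p = 6.66e-05). In HMGCS1, TM7SF2, SC5D and FADS2 both KYSE180 libraries stood above all others. ABCG1 did not separate in this way, at 10.3 and 11.6 FPKM in KYSE180 and 12.6 and 8.57 FPKM in KYSE450.

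The genes higher in KYSE180 than in KYSE30 further included ABCG1 by 2.49 ± 0.33, MVD by 1.43 ± 0.22, MSMO1 by 1.07 ± 0.16 and INSIG1 by 1.07 ± 0.18. CYP51A1, HSD17B7, FDFT1, EBP and STARD4 were higher by 0.89, 0.82, 0.70, 0.56 and 0.47 on the same scale, the smallest with a limma adjusted p of 0.039. DHCR7, the last reductase of the pathway, went the other way, with 88.9 and 67.1 FPKM in KYSE30 against 24.7 and 26.7 FPKM in KYSE180, a difference of -1.75 ± 0.18 (limma adjusted p = 0.000347). SREBF1 stood at 78.6 and 86.9 FPKM in KYSE30 against 25.2 and 29.3 FPKM in KYSE180, a difference of -1.76 ± 0.14 (limma adjusted p = 0.000105). LSS and PMVK differed by -0.97 ± 0.14 and -0.77 ± 0.16. When 1 library was left out, STARD4 lost its call without either KYSE30 library, without the untreated KYSE180 library or without either KYSE450 library, EBP without either KYSE30 library or the treated KYSE180 library, and FDFT1 without the treated library of KYSE30 or KYSE180. PMVK, CYP51A1 and HSD17B7 lost theirs without the treated KYSE30 library.

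On the scaled values, both KYSE450 libraries lay below all others in 13 of 33 members (23.4% of all genes). MSMO1, FDFT1 and SQLE are described here. The others were MVK, IDI1, TM7SF2, NSDHL, SC5D, SREBF2, INSIG1, INSIG2, ABCA1 and SCD. MSMO1 stood at 7.64 and 12.3 FPKM in KYSE450, 35.4 and 34.1 FPKM in KYSE30 and 75.2 and 95.3 FPKM in KYSE180. KYSE450 was below KYSE30 by -1.80 ± 0.16 (limma adjusted p = 0.000158) and below KYSE180 by -2.87 ± 0.16 (limma adjusted p = 3.03e-05). FDFT1 stood at 18.1 and 29.4 FPKM in KYSE450, 60.7 and 47.7 FPKM in KYSE30 and 93.6 and 108 FPKM in KYSE180. SQLE stood at 15.7 and 22 FPKM in KYSE450, 29.7 and 22.1 FPKM in KYSE30 and 37.3 and 38.1 FPKM in KYSE180. FDFT1 was lower in KYSE450 than in KYSE30 by -1.25 ± 0.18 and SQLE by -0.50 ± 0.17 (limma adjusted p = 0.00144 and 0.0394). For SQLE the adjusted p rose above 0.05 when an untreated or IFN-β library of KYSE30 or KYSE450 was left out.

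Not all of the pathway was low in KYSE450. CYP51A1, at 113 and 163 FPKM, was above KYSE30, at 57.2 and 49.6 FPKM, by 1.27 ± 0.16 (limma adjusted p = 0.000671). KYSE180 had 113 and 116 FPKM of it as deposited. On the scaled values both KYSE450 libraries lay above all others, and the difference from KYSE180 was 0.38 ± 0.16, without a call (limma adjusted p = 0.0738). HSD17B7, STARD4, ACACA and ABCG1 were also higher in KYSE450 than in KYSE30, by 1.05 ± 0.16, 1.16 ± 0.15, 1.15 ± 0.25 and 2.56 ± 0.33. ABCA1 was the member with the widest range, from 0.11 to 13.1 FPKM over the 6 libraries, and lay below 1 FPKM in both KYSE450 libraries. Its difference from KYSE180 was -3.25 ± 0.27 (limma adjusted p = 0.000142). As the ratio of the highest to the lowest library, the narrowest ranges were those of ACAT2 (61.5 to 91.2 FPKM), FDPS (118 to 177 FPKM) and SCAP (9.39 to 15.2 FPKM).

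By median level over the 6 libraries the most abundant members were SCD at 170 FPKM, FDPS at 147 FPKM, CYP51A1 at 113 FPKM and ACAT2 at 72.7 FPKM, and the least abundant beside CH25H were TM7SF2 at 2.73 FPKM and INSIG2 at 4.5 FPKM. SCD lay above 96% of the genes tested and TM7SF2 above 14.8%. In the knockdown experiment SREBF1 and SCD led with medians of 117 FPKM each, then FDPS at 106 FPKM and FASN at 91.5 FPKM. The ranges over libraries of SCD and FDPS overlapped in both experiments.

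The 4 libraries of the knockdown experiment measured KYSE180 against KYSE30 a second time. There both KYSE30 libraries lay above both KYSE180 libraries in 6 of 32 members (32.5% of all genes) and below them in 5 (35.6%). By the test 7 of 32 members differed (4 higher and 3 lower in KYSE180), where 27.7% of all genes did (14.7% higher and 13.0% lower). SC5D, FADS2, HMGCS1 and EBP were higher in KYSE180 and DHCR7 and SREBF1 lower in both experiments. These 6 are 18.8% of the members tested in both, beside 18.7% of 10055 genes. With no filter on low values, DHCR7 and SC5D kept the call in this experiment and the other 5 lost it. DHCR7 differed by -2.30 and SREBF1 by -2.04 in the knockdown experiment (limma adjusted p = 0.00306 and 0.00837), and SC5D by 1.69 (limma adjusted p = 0.00765). FASN, the last of the 7, was lower in KYSE180 by -1.30 (limma adjusted p = 0.0199) and by -0.65 in the IFN-β experiment (limma adjusted p = 0.144). The direction was shared by 26 of 32 members, or 81.2%, beside 74.5% of all genes, with r = 0.75 and rho = 0.63 across members and r = 0.79 and rho = 0.69 across all 10055 genes. TM7SF2 and ABCG1 had differences of 2.56 and 2.49 in one experiment and of 0.36 and -0.13 in the other, in which the KYSE180 vector library had 1.73 FPKM of TM7SF2.

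**Figure D5:**
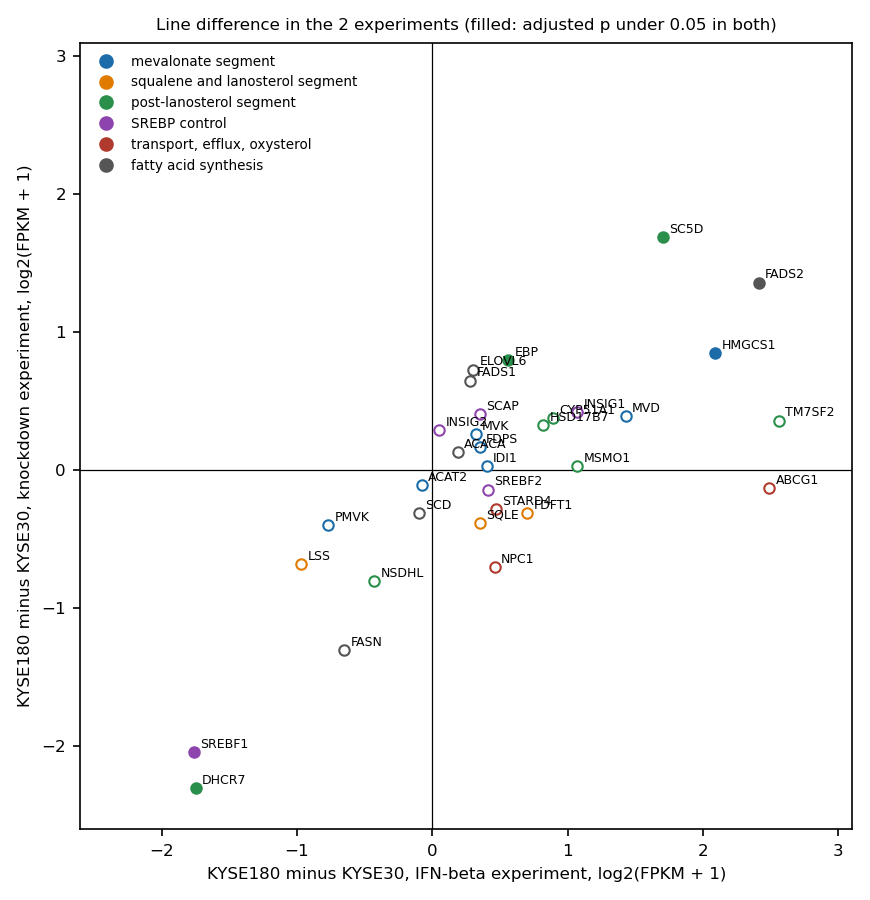
KYSE180 minus KYSE30 for each gene tested in both experiments in log2(FPKM + 1), the IFN-β experiment (2 libraries a line) on the x axis and the knockdown experiment (2 libraries a line) on the y axis. Filled circles mark the 6 genes with an adjusted p under 0.05 in both; DHCR7 and SREBF1 lie at the lower left, and SC5D, FADS2 and HMGCS1 at the upper right.

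Several members can share reads with other transcripts. In GENCODE release 29, 14 members share exonic bases with a gene on the opposite strand, among them HMGCS1 (703 bases), LSS (448 bases) and SREBF2 (280 bases), and no source used here gives the strand setting of the counting. INSIG1 and MSMO1 share none. FDPS has 8 pseudogenes named after it, CYP51A1 3, HSD17B7 2, and SCD and FADS2 1 each, so the levels of these 5 genes are less certain.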

How the data were processed

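RNA of 10 libraries was analysed from the authors' deposited tables, 1 per library, whose values are FPKM per the file headers. TopHat, HTSeq and the hg38 build appear in the submitters' processing notes, without versions or roles. No source used here gives the strand setting or the depth. FPKM carry no depth, so no interval for a single library can be given. The IFN-β tables hold 20501 named genes after 1 duplicate was merged (FPKM sums of 988427 to 993533) and a long non-coding part with no member, which was left out. The knockdown tables hold 22609 genes after 946 copies on alternate haplotypes were added to their primary gene (sums of 399081 to 425340). MSMO1 and SC5D are listed as SC4MOL and SC5DL in the IFN-β tables. The 2 experiments were normalized apart and were fitted apart.

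Libraries were scaled by median-of-ratios factors, and log2(FPKM + 1) was modelled in R 4.3.3 with limma 3.58.1 (its trend and robust options, statmod 1.5.0) on all genes passing the filter, with line and treatment as terms and Benjamini-Hochberg adjustment at 0.05. The pseudocount of 1 shrinks differences of genes with low values. Same-numbered libraries come from the same line: deviations from the group means correlated at 0.935, 0.878 and 0.906 in the IFN-β experiment and 0.842 in the knockdown experiment, so the line is the pairing and the block is in the reported fit. The code was tested on simulated data. Promoters come from RefSeq (GRCh38.p14) and gene positions from GENCODE release 29. Fitted differences are given for leading members past the threshold, some with p, or else for the 5 with the smallest p. A member not named in a contrast between lines may still be among those counted as called. Levels are given for all members in the knockdown experiment and for part of them in the IFN-β experiment. Alternatives changed the scaling, pseudocount, filter, limma options, block and libraries. The members and lists were chosen with earlier results of these data known.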

Additional observations from a re-analysis of the deposited data

Results flagged for a closer look

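NSDHL, the dehydrogenase that acts beside MSMO1 in removing methyl groups from the sterol, was the member whose 2 lines went opposite ways by 1.5-fold or more each after IRF1-AS knockdown on the scaled log2(FPKM + 1) scale. Its log2 ratio was 0.73 in KYSE30, from 14 to 25 FPKM, and -0.69 in KYSE180, from 14 to 8.27 FPKM. Each line has 1 pair of libraries, so the difference between them was not tested. ABCG1 did the same in FPKM, at 28.5% of control in KYSE30 and 163% in KYSE180, but its KYSE180 ratio came to 0.55 on that scale, just short of 1.5-fold.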

How the results depend on the processing

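No member was called after IFN-β or after the knockdown under any alternative that gave a test. The count of members lower at an unadjusted p under 0.05 after the knockdown was 13 and became 6 with no replicate block, and the paired line design is thus the setting this count depends on most. The median difference of the members after the knockdown was -0.48 and became -0.60 with a pseudocount of 0.1; without KYSE30 or KYSE180 it was -0.53 and -0.47, values with no test since 1 pair then remains. After IFN-β the median of -0.05 became 0.07 on the values as deposited, where the median gene of KYSE450 lay 0.43 higher after treatment. Members that differed between KYSE450 and KYSE30, 17 in the reported fit, ranged from 11 to 20 when single libraries were left out, the lowest without the untreated KYSE30 library. Those that differed between KYSE180 and KYSE30 in the knockdown experiment, 7 in the reported fit, became 2 with no filter on low values. Over all genes, calls after IFN-β numbered 69 and became 220 without scaling (178 higher and 42 lower), 29 with no filter, 13 with no replicate block, 105 without KYSE30 and 108 without KYSE180. Genes that differed between KYSE180 and KYSE30 numbered 5808 in the IFN-β experiment and became 3391 or 3339 without the untreated or treated KYSE30 library, those between KYSE450 and KYSE30 numbered 5844 and became 3461 or 3344, and those in the knockdown experiment numbered 3544 and became 944 with no filter. The cause of these shifts was not tested. The unscaled count of 220 carries little weight, since that fit gave adjusted p-values too small for 6 libraries. No result changed sign among called values, and the remaining counts of members stayed within 1.5 times their reported value.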
